A study of Mus musculus with 28 samples.

Results

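The 10 genes of glycolysis described here were followed through the remodeling of the mouse arteriovenous fistula (AVF), chosen by name as a glucose transporter, enzymes from the top to the bottom of the pathway and the enzyme that makes lactate. The 10 genes, of 56980 in the bulk count table and 32285 in the single-cell matrices, were Slc2a1, Hk2, Pfkp, Pfkfb3, Aldoa, Gapdh, Pgk1, Eno1, Pkm and Ldha. All 10 were present under these symbols, and all 10 passed the filter for low counts in the bulk table.

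All mice were C57BL/6 animals of both sexes whose kidney mass had been reduced by 5/6 nephrectomy, and the end of a jugular vein was later joined to the side of a carotid artery to make the AVF. No age is given in the sources used here. The jugular vein of the opposite side, the contralateral vein, served as control, so every control also came from an animal that had undergone nephrectomy. Bulk RNA sequencing covered 7 contralateral veins (5 female, 2 male), 8 early AVFs labelled day 3 (3 female, 5 male), 5 mid AVFs labelled day 10 (3 female, 2 male) and 5 late AVFs labelled day 21 (3 female, 2 male), each from ground whole tissue. By the study's methods the harvest days of each bulk stage were spread around a mean, and this spread was widest at the early stage. Single-cell RNA sequencing covered 1 contralateral, 1 early and 1 late library. Each was made from a pool of 10 vessels from male and female mice, taken apart by warm enzymatic digestion.

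Glycolysis splits glucose into pyruvate in the cytosol and yields ATP without oxygen, and lactate dehydrogenase turns pyruvate into lactate while restoring the NAD+ that the pathway needs. Glucose enters through transporters such as GLUT1, is held in the cell by hexokinase, and is committed to the pathway by phosphofructokinase. Activated macrophages, neutrophils and proliferating cells are known for high glycolytic flux, and several of the genes are known targets of the hypoxia-inducible factors. Messenger RNA levels, which were measured here, are not flux.

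Contralateral libraries held 20254173 to 29913427 counts and early ones 23676215 to 67457501, with 27021483 to 33395623 at the mid and 27855449 to 36879746 at the late stage. Fewer genes had a count in contralateral veins (11958 to 18283) than in mid (25075 to 26168) and late AVFs (24529 to 26771), with early AVFs at 17514 to 25141. Some libraries held markers of tissue beside the vessel. The summed level of 6 skeletal muscle markers was 1.23 to 30.9 CPM (counts per 1000000 counts of a library, scaled by TMM) in contralateral veins but reached 4299.6 in early AVF 10, 6146 in mid AVF 12 and 8376 in late AVF 23, and 5 platelet markers reached 9369 and 12695 CPM in early AVFs 5 and 6 against 240.1 to 575.5 in contralateral veins. Thyroid and parathyroid markers reached 14039.5 CPM in early AVF 1 and 5314 in late AVF 19. In the single cells a cluster led by the parathyroid genes Pth and Chga was left unnamed. It was 0.744% of contralateral, 16.4% of early and 8.26% of late cells. All 8 mononuclear phagocyte markers were raised in it, and Lyz2, Mmp12 and Spp1 were among its leading genes. Its cells were shallow, with a median of 1235 counts, and what they are was not tested. They are not part of the mono/macro-like values given below. The labelled cell types also moved with the groups: the summed level of 8 mononuclear phagocyte markers was 1894 to 7739 CPM in contralateral veins and 11530 to 35815 in early AVFs, that of 7 endothelial markers 2069 to 3527 and 301 to 538, and that of 6 smooth muscle markers 9653 to 21058 and 1015 to 2589. The part of these shifts in the bulk results was not tested beyond the settings named beside them, and in bulk tissue fewer cells of a type and less RNA per cell cannot be told apart.

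The control regions of 3 genes called in early AVFs are shown as examples, Ldha and Gapdh among the 4 called higher and Pfkp as the one called lower. Each sequence is the RefSeq window on GRCm38.p6 from 250 bases before to 50 bases after a transcription start, 5′ to 3′ along the gene. Capitals mark matches to ACGTG or GCGTG on either strand, the cores of the hypoxia response element, and touching matches run together, so a CACGTG palindrome is read on both strands. The Ldha window, the upstream one of 2 that RefSeq lists for this gene, is at chr7:46845554-46845853 on the plus strand, the Gapdh window at chr6:125165724-125166023 on the minus strand and the Pfkp window at chr13:6648722-6649021 on the minus strand.
Ldha: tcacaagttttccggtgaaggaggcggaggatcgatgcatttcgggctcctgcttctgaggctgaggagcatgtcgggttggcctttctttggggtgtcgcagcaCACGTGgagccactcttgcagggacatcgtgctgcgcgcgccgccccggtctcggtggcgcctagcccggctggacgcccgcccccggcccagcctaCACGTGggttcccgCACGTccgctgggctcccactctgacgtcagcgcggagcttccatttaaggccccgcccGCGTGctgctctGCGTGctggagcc
Gapdh: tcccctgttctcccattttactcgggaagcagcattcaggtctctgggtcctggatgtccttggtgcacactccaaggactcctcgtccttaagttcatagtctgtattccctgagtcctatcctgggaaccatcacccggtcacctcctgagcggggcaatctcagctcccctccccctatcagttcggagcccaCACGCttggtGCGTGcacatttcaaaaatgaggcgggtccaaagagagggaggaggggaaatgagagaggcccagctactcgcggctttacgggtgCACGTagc
Pfkp: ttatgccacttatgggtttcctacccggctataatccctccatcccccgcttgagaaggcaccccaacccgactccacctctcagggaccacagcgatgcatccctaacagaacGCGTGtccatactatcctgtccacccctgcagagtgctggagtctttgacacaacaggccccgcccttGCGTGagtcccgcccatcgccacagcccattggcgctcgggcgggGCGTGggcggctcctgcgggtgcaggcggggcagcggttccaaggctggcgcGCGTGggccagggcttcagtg
The Ldha window shown held 5 ACGTG and 2 GCGTG matches, the Gapdh window 1 and 2, and the Pfkp window 0 and 4. The other Ldha window (chr7:46846832-46847131, plus strand) held 0 ACGTG and 2 GCGTG, and the windows of Pkm, also called higher, held 0 and 2 ACGTG and no GCGTG. Each of the 3 windows of Eno1, the remaining gene called higher, held 0 ACGTG and 2 GCGTG. Over the 17 windows of the 10 genes, 58.8% held ACGTG and 88.2% held either core, against 19.6% and 43.8% of 32851 windows of the same length over all genes. Neighbouring windows of Aldoa overlap, as do those of Eno1, so some matches were counted again. The genes were chosen by name, and the GC content of their windows, 52.7% to 69.7%, was not matched in the windows of all genes. A match is a description of letters and not a site of binding.

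The genes lie on 7 chromosomes. On GRCm38 (GENCODE M21), Eno1 (chr4:150236721-150248879, plus strand) and Slc2a1 (chr4:119108711-119137983, plus) share chromosome 4, Hk2 (chr6:82725025-82774454, minus) and Gapdh (chr6:125161715-125166467, minus) share chromosome 6, and Ldha (chr7:46841475-46855627, plus) and Aldoa (chr7:126795234-126800751, minus) share chromosome 7. Pfkfb3 is at chr2:11471433-11554077 (minus), Pkm at chr9:59656368-59679375 (plus), Pfkp at chr13:6579768-6648777 (minus) and Pgk1 at chrX:106187100-106203699 (plus). All 10 are protein-coding, and the bulk values sum whole genes.

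In early AVFs 5 of the 10 genes differed from contralateral veins. Gapdh, Pkm, Ldha and Eno1 rose 2.03-fold to 2.91-fold, Pfkp fell 4.24-fold, and the other 5 genes did not pass the test. The call was an adjusted p under 0.01 and at least a 2-fold change in edgeR's quasi-likelihood test with Benjamini-Hochberg adjustment over 12673 genes. These 5 genes stand beside 12.6% of all genes called in this comparison (6.17% higher, 6.45% lower). The median log2 fold change of the 10 was 1.19 against -0.01 over all genes tested, and 8 of the 10 values were above 0. Within female mice alone 3 of the 10 were called (Gapdh, Pkm and Pfkp), beside 2.9% of all genes. Within male mice alone, with 2 contralateral veins, 1 of the 10 was called (Pfkp), near the 8.23% of all genes. Scaling by upper quartiles in place of TMM moved the median over all genes to 0.22 and the share of calls that were higher from 48.9% to 62.4%, and Aldoa (1.04) was then called too.

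**Figure D1:**
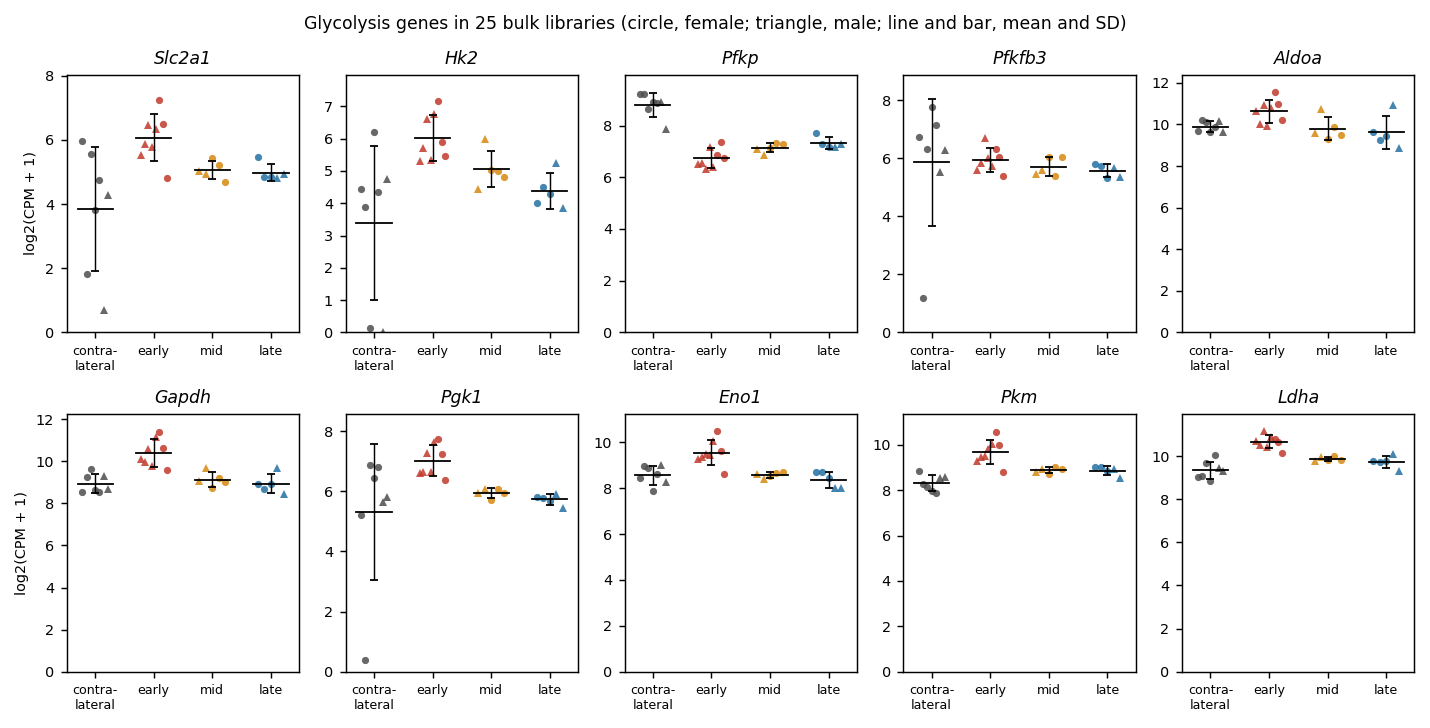
Level of each of the 10 glycolysis genes in the 25 bulk libraries, as log2(CPM + 1) on the y axis by group on the x axis, with circles for female and triangles for male mice and bars for the mean ± SD. Ldha lies higher in every early AVF than in every contralateral vein, and Pfkp lies lower in every AVF than in every contralateral vein.

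Ldha encodes the lactate dehydrogenase subunit that favours lactate formation. Its lowest, median and highest levels were 454, 631 and 1041 CPM in contralateral veins and 1128, 1642 and 2292 CPM in early AVFs. All 8 early AVFs lay above all 7 veins, as was so of 4.47% of all genes, and the rise was 1.31 on the log2 scale (SE 0.19, adjusted p = 9.03e-06, edgeR). The 5 mid AVFs held 883, 1002, 889, 1020 and 890 CPM, and the 5 late AVFs held 865, 849, 868, 1106 and 629 CPM. These levels overlapped those of the veins, and every mid and every late AVF lay below every early one, as did 5.2% and 8.39% of all genes, and the differences from the veins, 0.49 (SE 0.20, adjusted p = 0.12) and 0.37 (SE 0.20, adjusted p = 0.27), did not pass the test.

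Gapdh, the enzyme that oxidises glyceraldehyde 3-phosphate, had lowest, median and highest levels of 370.5, 407 and 785 CPM in contralateral veins and 764, 1320 and 2731 CPM in early AVFs. The ranges overlapped only between early AVF 10 and contralateral vein 31, and the rise was 1.54 on the log2 scale (SE 0.28, adjusted p = 0.000173, edgeR). Mid AVFs held 529.6, 822, 418, 589 and 512 CPM and late AVFs 489, 411, 483, 828 and 349.6 CPM, within or close to the range of the veins. The mouse genome holds many processed copies of Gapdh. In the count table, 181 genes similar to Gapdh in sequence together held 6.41% of its counts, and how the authors' counting treated reads that fit several genes is not given in the sources used here.

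Pkm encodes the pyruvate kinase that makes pyruvate and ATP. It was at 234, 313 and 464 CPM (lowest, median, highest) in contralateral veins and at 443, 817 and 1543 CPM in early AVFs. Early AVF 10 fell inside the range of the veins and the other 7 lay above it, and the rise was 1.42 on the log2 scale (SE 0.21, adjusted p = 1.89e-05, edgeR). In mid AVFs Pkm stood at 444, 486, 418, 527 and 489.8 CPM and in late AVFs at 515, 519.9, 457, 484 and 376 CPM, with 6 of these 10 above the highest vein yet short of the call at 0.53 (SE 0.23, adjusted p = 0.14) and 0.52 (SE 0.23, adjusted p = 0.16). The count is for the whole gene, so the M1 and M2 splice forms cannot be told apart.

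Eno1, the enolase of most tissues, had lowest, median and highest levels of 232, 394 and 508 CPM in contralateral veins and 387, 709 and 1423 CPM in early AVFs. Again only early AVF 10 lay within the range of the veins. The rise of 1.02 on the log2 scale (SE 0.23, adjusted p = 0.0016, edgeR) was just past the 2-fold limit. It fell short of it by DESeq2 or with its size factors (0.97 each), with library totals alone (0.94), with filterByExpr (0.92) or with no low-count filter (0.97), was not called when only these 2 groups were fitted, and also fell short without contralateral vein 34 (0.95), 35 (0.92) or 633 (0.97), early AVF 6 (0.92), mid AVF 12 or 13 (0.93 each) or late AVF 16 or 23 (0.93 each). Without early AVFs 5 and 6, the libraries high in platelet markers, it was 0.75 (adjusted p = 0.0082) and the rise of Gapdh was 1.19 (adjusted p = 0.000965). Mid AVFs held 393, 335, 364, 409.7 and 416 CPM of Eno1 and late AVFs 417, 413, 352, 255 and 257 CPM, inside the range of the veins.

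Pfkp, the platelet-type isoform of phosphofructokinase, went the other way. Contralateral veins held 592, 593, 397, 486, 464, 484 and 234 CPM (veins 27, 28, 31, 34, 35, 632 and 633), and early AVFs had lowest, median and highest levels of 79.4, 99.0 and 165 CPM. No AVF of any stage reached the lowest vein, a separation that 2.34% of all genes had at the early, 4.69% at the mid and 4.25% at the late stage: mid AVFs held 138, 115, 141, 158 and 156 CPM and late AVFs 212, 157, 144, 144 and 156 CPM. In edgeR the log2 fold change against the veins was -2.08 at the early (SE 0.20, adjusted p = 2.49e-08), -1.71 at the mid (SE 0.23, adjusted p = 1.40e-05) and -1.51 at the late stage (SE 0.23, adjusted p = 8.35e-05). The call at the early stage held in every one of 40 other settings, which include looser thresholds on the same fit where it could not be lost. Within male mice alone the mid value of -1.57 (adjusted p = 0.046) and the late value of -1.36 (adjusted p = 0.083) were not called. The 3′ part of Pfkp overlaps Pitrm1 on the opposite strand by 748 bases, and Pitrm1, with 33931 counts over all libraries against 155253 for Pfkp, had an early log2 fold change of 0.13 (adjusted p = 0.85).

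**Figure D2:**
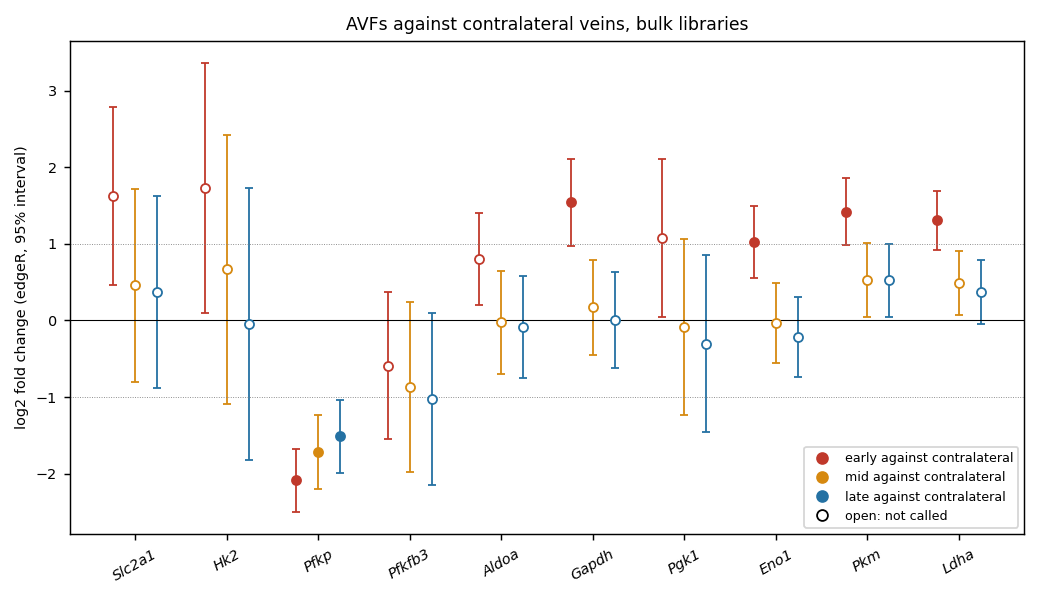
Log2 fold change (y axis) of each of the 10 genes (x axis) in early, mid and late AVFs against contralateral veins in the bulk libraries, with the 95% interval of edgeR's fit as the bar, open points for genes not called and dotted lines at a 2-fold change. Pfkp is the gene called lower at each stage, and the rises of Gapdh, Pkm, Ldha and Eno1 are seen at the early stage.

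Slc2a1 and Hk2 stand at the entry of glucose into the pathway, the former encoding the transporter GLUT1 and the latter an inducible hexokinase bound to mitochondria. Slc2a1 had lowest, median and highest levels of 0.627, 18.6 and 61.3 CPM in contralateral veins and 26.9, 68.5 and 152 CPM in early AVFs. Hk2 stood at 0, 19.4 and 72.6 CPM in the veins and at 38.8, 54.8 and 144 CPM in early AVFs. The spread between the veins was wide, with vein 632 at or near 0 for both genes, vein 31 at 0.0876 CPM of Hk2 and vein 28 at 2.56 CPM of Slc2a1. The log2 fold changes of 1.63 (SE 0.56, adjusted p = 0.037, edgeR) for Slc2a1 and 1.73 (SE 0.79, adjusted p = 0.12) for Hk2 were thus as large as those of the called genes but did not pass the call. By the late stage Slc2a1 was at 43.0, 27.6, 27.5, 27.3 and 29.5 CPM and Hk2 at 15.1, 21.6, 18.4, 36.9 and 13.5 CPM, and all 5 late values of Hk2 were below all 8 early ones.

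Pfkfb3 makes fructose 2,6-bisphosphate, the strongest activator of phosphofructokinase. Its lowest, median and highest levels were 1.25, 79.3 and 217 CPM in contralateral veins and 40.4, 59.4 and 102 CPM in early AVFs, with mid AVFs at 42.7, 47.5, 65.6, 40.4 and 64.8 CPM and late AVFs at 54.3, 51.7, 38.9, 49.3 and 40.0 CPM. The groups overlapped at all stages, and the differences from the veins of -0.59, -0.87 and -1.02 on the log2 scale did not pass the test (adjusted p = 0.40, 0.33 and 0.25, edgeR). Without the 3 veins in which the fewest genes were detected (28, 31 and 632), a setting chosen after seeing the data, the values were -1.08 (SE 0.25, adjusted p = 0.0022), -1.35 (SE 0.28, adjusted p = 0.0017) and -1.50 (SE 0.28, adjusted p = 0.000865), all past the call. Vein 28, with 1.25 CPM, was among the veins left out.

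Aldoa and Pgk1 fill the middle of the pathway. Aldoa, the muscle-type aldolase, was at 786, 938 and 1197 CPM (lowest, median, highest) in contralateral veins and at 973, 1684 and 3027 CPM in early AVFs, a log2 difference of 0.81 (SE 0.29, adjusted p = 0.046, edgeR). In mid AVFs it was at 768, 1715, 638, 926 and 710.4 CPM, and in late AVFs at 784, 613, 706, 1992 and 462 CPM. The high values were those of mid AVF 12 and late AVF 23, which also held the most skeletal muscle marker RNA of their groups (6146 and 8376 CPM). Without the 5 libraries highest in those markers the late-versus-early difference of Aldoa was -1.42 (SE 0.28, adjusted p = 0.0046) against -0.89 (SE 0.33, adjusted p = 0.11) with them.

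Pgk1, the X-linked phosphoglycerate kinase that yields ATP, was at 0.312, 54.8 and 116 CPM in contralateral veins and at 81.2, 124 and 209.8 CPM in early AVFs (lowest, median, highest). 4 of the 7 veins lay below all early AVFs, and vein 28 held almost none. The log2 difference of 1.07 (SE 0.50, adjusted p = 0.13, edgeR) did not pass the test. Mid AVFs held 60.3, 66.4, 50.8, 66.1 and 60.4 CPM and late AVFs 55.2, 54.1, 50.4, 59.0 and 42.8 CPM, and every late value lay below every early value.

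After the early stage Gapdh and Eno1 came down again. From early to late AVFs, Gapdh fell by 1.54 (SE 0.31, adjusted p = 0.0040, edgeR) and Eno1 by 1.23 on the log2 scale (SE 0.26, adjusted p = 0.0044), and these 2 of 10 genes were called where 3.01% of all genes were (2.28% lower). Ldha, at -0.94 (SE 0.21, adjusted p = 0.0056), and Pkm, at -0.90 (SE 0.24, adjusted p = 0.018), stayed within the 2-fold limit. Pgk1, Hk2 and Ldha were below every early AVF in every late AVF, as were 8.39% of all genes. The Gapdh call was lost without late AVF 16 (-1.48), 17 (-1.49), 19 (-1.52) or 24 (-1.44), and that of Eno1 without any of these or late AVF 23 or early AVF 5 (-1.10 to -1.34). When only the early and late groups were fitted neither gene was called, and Hk2 (-1.77) and Pgk1 (-1.37) were called instead. In that fit 596 of 12673 genes were called. Without early AVFs 5 and 6 neither gene was called (Gapdh -1.15 and Eno1 -0.93, adjusted p = 0.018 each).

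From early to mid AVFs 0 of the 10 genes were called by edgeR, beside 0.00789% of all genes, and 1 (Gapdh) by DESeq2, beside 3.24% of all genes. At an adjusted p under 0.05 with no limit on the fold, 4 of the 10 were lower, beside 4.23% of all genes (3.55% lower): Gapdh (-1.37, adjusted p = 0.014), Eno1 (-1.05, adjusted p = 0.018), Ldha (-0.82, adjusted p = 0.021) and Pkm (-0.89, adjusted p = 0.029). Gapdh passed the full call without early AVF 1 (-1.46), 2 (-1.47), 4 (-1.45) or 10 (-1.43), and Eno1 without early AVF 10 (-1.12). Between mid and late AVFs 0 of 10 genes and 0% of all genes were called by edgeR. Against contralateral veins, 1 of 10, Pfkp, was called at the mid stage (6.05% of all genes, 3.31% lower) and at the late stage (5.33%, 2.85% lower).

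Levels between genes were compared per kilobase of exon, where the error is the SD over libraries. The genes were measured in the same libraries and were not compared library by library, so overlapping spreads do not show equal levels. Aldoa and Ldha led in contralateral veins with means of 332 ± 61.0 and 202 ± 61.2 CPM per kb (n = 7). In early AVFs they led with 581 ± 231 and 499.7 ± 108 CPM per kb (n = 8), where their spreads overlapped. Gapdh came next at 123 ± 39.8 and 359 ± 172 CPM per kb, and its spread overlapped that of Ldha in early AVFs. Eno1 (72.9 ± 19.3 and 148 ± 58.9) and Pkm (65.5 ± 16.4 and 175 ± 67.5) followed, with spreads that overlapped each other. Slc2a1 (6.83 ± 6.41 and 21.1 ± 10.9) and Hk2 (3.65 ± 4.11 and 12.1 ± 6.52) were at the low end, and their spreads also overlapped. The order depended on the length used: per kb of 1 representative transcript, a length chosen after seeing the data, Gapdh was at 1045 and Ldha at 911 in early AVFs. Pfkp moved from 34.7 CPM per kb in veins, above Pgk1 at 28.8, to 8.17 in early AVFs, below Pgk1 at 60.5.

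The mean of the 10 genes' centred log2 levels was -0.48 for the veins and 0.72, -0.04 and -0.20 for early, mid and late AVFs. The genes whose group means lay closest to this course over the 4 groups were Rabggtb (distance 0.0378), Prmt1 (0.0510), Gnb2 (0.0559), Clta (0.0566) and Arl8a (0.0637), where the distance is Euclidean on the log2 scale. A test of whether the group differences depended on sex called 13 of 12673 genes and 0 of the 10 by edgeR, and 0 of the 10 had an unadjusted p under 0.05. With the wider filter of edgeR, filterByExpr, it called 24 of 20076 and 0 of the 10.

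Other enzymes and isoforms of glycolysis were mixed at the early stage, with 4 higher, 1 lower and 15 not called of 20 tested. Over all genes 6.17% were called higher and 6.45% lower. The median log2 difference of the list was 0.08. Tpi1, triosephosphate isomerase, had a mean of 473 CPM in early AVFs against 186 in the veins (1.35, adjusted p = 0.000138, edgeR), and Pgam1, phosphoglycerate mutase, 101 against 34.8 (1.53, adjusted p = 0.000464). Hk3, the hexokinase of myeloid cells, was at 1.84 and 29.1 CPM (3.98, adjusted p = 0.0050). Aldoc, an aldolase known from brain, had 0 counts in all 7 contralateral veins and 3382 in early AVFs, summed over each group. Against a floor of 3 counts over the group of veins, its level was 769.8-fold in early, 247.9-fold in mid and 454.4-fold in late AVFs. This floor allows for counting error only and not for the spread between libraries. The veins also had a count for fewer genes than mid and late AVFs. Slc2a4, which encodes the insulin-responsive transporter GLUT4, fell from 123 to 7.42 CPM (-4.05, adjusted p = 0.000764).

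Of 5 tested genes of lactate transport, Slc16a3 and Emb rose and Slc16a7 fell at the early stage, where 12.6% of all genes were called. Slc16a3, the lactate exporter MCT4, was at a mean of 2.60 CPM in veins and 57.6 in early AVFs (4.46, adjusted p = 0.000154, edgeR), and its log2 difference stayed at 3.54 in mid (adjusted p = 0.0033) and 3.27 in late AVFs (adjusted p = 0.00675). Of 13 tested genes for the entry of pyruvate into mitochondria, 0 were called higher and 2 lower in early AVFs (Pdhb -1.12, Dlat -1.01), where 6.45% of all genes were called lower. In both mid and late AVFs 0 were called higher and 4 lower, where 3.31% and 2.85% of all genes were called lower, and 9 were not called (Mpc2 -1.74 and -1.72, Mpc1 -1.48 and -1.53, Pdhb -1.40 and -1.51, Dld -1.25 and -1.24). Mpc1 and Mpc2 form the mitochondrial pyruvate carrier, and Pdhb, Dlat and Dld are parts of the pyruvate dehydrogenase complex.

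At the early stage, where 12.6% of all genes were called, the pentose phosphate pathway had 2 higher of 8 tested (Pgd 1.20, Pgls 1.49), gluconeogenesis 0 of 4 and glycogen metabolism 1 lower of 11 (Pygb -1.53). Of 19 tested genes of the hypoxia response, Hif1a rose by 1.08 (adjusted p = 0.0014, edgeR) while Ndrg1 (-1.04) and Epas1 (-1.99, adjusted p = 8.80e-06) fell, and the list median of -0.34 was on the lower side.

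**Figure D3:**
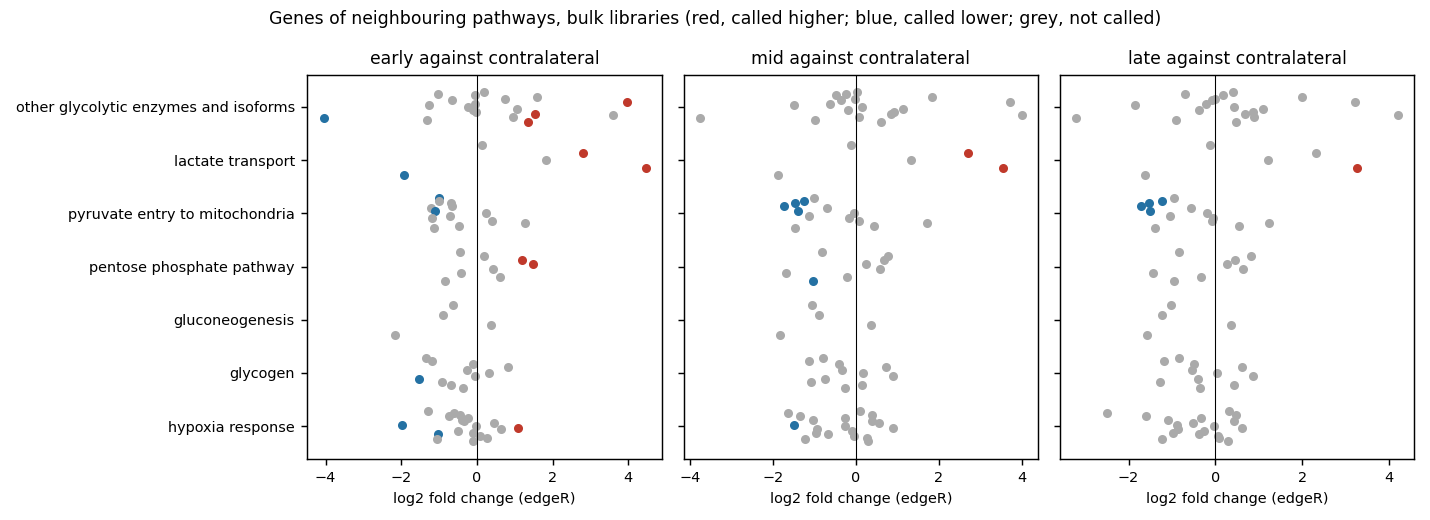
Log2 fold change against contralateral veins of each tested gene in the lists of the pathway, in 1 panel per stage, with red points for genes called higher, blue for genes called lower, grey for genes not called and a line at 0. Aldoc is not drawn because its level in contralateral veins was 0. At the early stage the highest point is Slc16a3 of lactate transport, and no gene of pyruvate entry was called higher at any stage.

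In the single cells, 16893 of 26438 barcodes passed the study's limits of 200 to 6000 genes and at most 10% mitochondrial UMIs (unique molecular identifiers). The kept cells had a median of 2751 UMIs in the contralateral, 8951 in the early and 15425 in the late library, so levels are given as CPM over the UMIs of a class. Classes were named from marker genes, and the names stand for cells that resemble these types. Barcode overlap between libraries was 19 for contralateral and early, 14 for contralateral and late and 16 for early and late. The doublet caller marked 0, 2 and 120 cells, which is under 0.5% in the contralateral and early libraries, so it did not work there and doublets were kept. With 1 library per group there is no test between groups, and the 95% intervals are for counting error only.

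**Figure D4:**
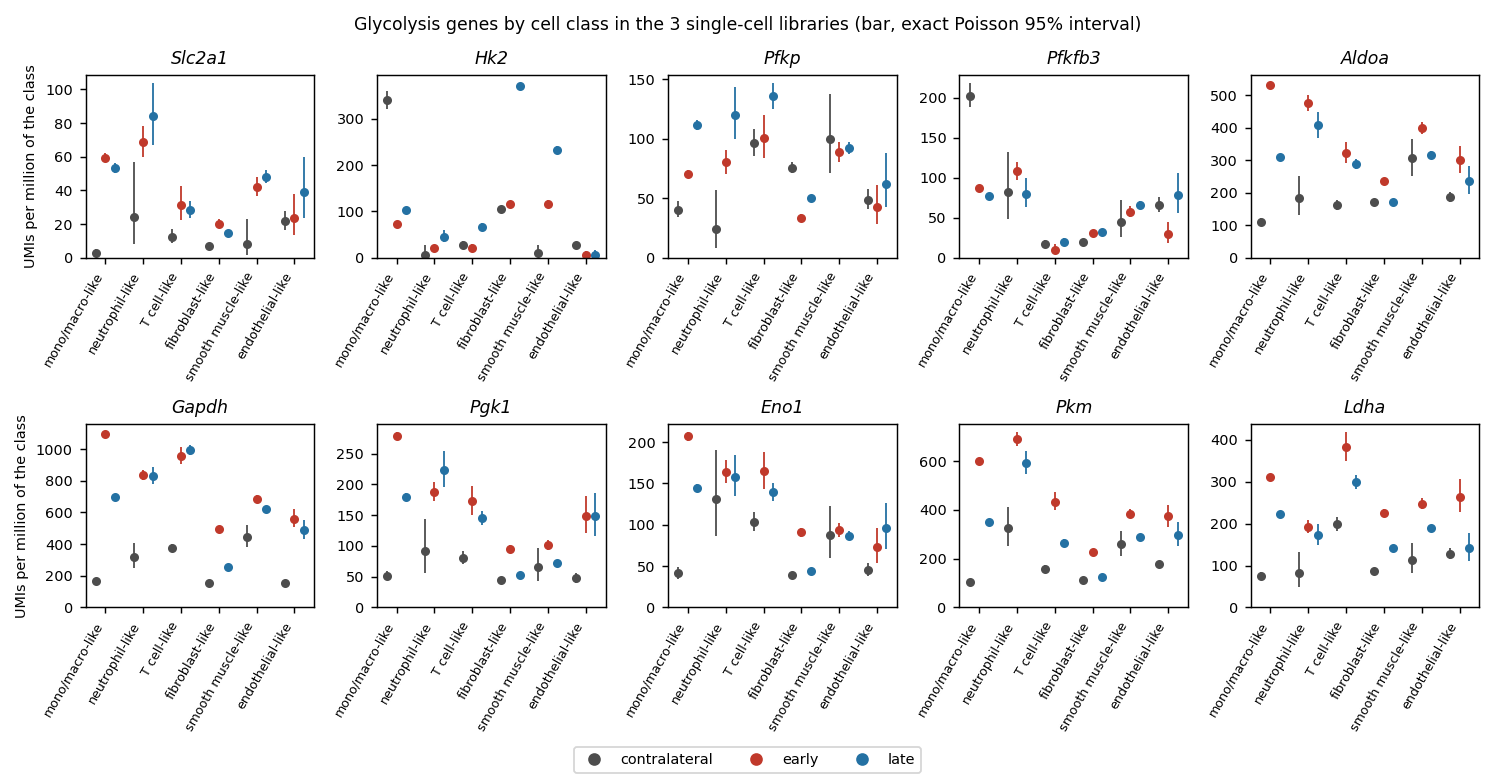
Level of the glycolysis genes in CPM of UMIs by cell class in the contralateral, early and late single-cell libraries, with exact 95% Poisson intervals as bars, 1 panel per gene and its own axis from 0. In mono/macro-like cells Gapdh is higher in early than in contralateral cells, whereas Hk2 and Pfkfb3 are lower.

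The sum of the 10 genes over all cells was 859 CPM in the contralateral, 2718 in the early and 1702 in the late library. It was higher in the early than in the contralateral library in 8 of 8 named classes with at least 20 cells in both libraries. Mono/macro-like cells, the mononuclear phagocytes, had the widest step of these, 2.92-fold (95% interval 2.83 to 3.02), and were still 1.99-fold higher (1.92 to 2.05) in the late library. Fibroblast-like cells were at 817.5 CPM in the contralateral, 1569 in the early and 1259 in the late library, a ratio of 1.92 (1.87 to 1.97) and 1.54 (1.51 to 1.57). The early ratio was 2.22 in neutrophil-like cells, 2.11 in T-cell-like cells, 2.02 in endothelial-like cells and 1.54 in smooth muscle-like cells. Different clusters made up a class in veins and AVFs: most contralateral fibroblast-like cells were in 1 cluster with 1688 contralateral, 3 early and 32 late cells, and most contralateral mono/macro-like cells in 1 with 654, 22 and 10.

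In mono/macro-like cells 8 of the 10 genes were higher in the early library with intervals above 1 and 2 were lower. Of 2626 genes with at least the 1648 UMIs of the gene with the fewest of the 10, 49.7% had intervals above 1 and 37.9% below 1, so an interval off 1 was common in these cells. Gapdh went from 167 to 1096.5 CPM (6.56-fold), Pkm from 105 to 600.5 (5.70-fold), Pgk1 from 51.5 to 279 (5.42-fold) and Eno1 from 41.0 to 207 (5.05-fold). Aldoa (4.89-fold) and Ldha (4.20-fold, 73.9 to 311) followed. Slc2a1 was 22.7-fold higher (11.9 to 49.7), but on 9 UMIs in the contralateral cells. Hk2 was lower, at 72.3 against 340.4 CPM, as was Pfkfb3, at 87.2 against 202 CPM, with ratios of 0.21 and 0.43.

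In fibroblast-like cells Gapdh (3.19-fold), Slc2a1 (2.79-fold), Ldha (2.56-fold), Eno1 (2.30-fold), Pgk1 (2.17-fold) and Pkm (2.03-fold) led in the early library, and Aldoa was 1.38-fold higher. Pfkp was the exception, at 75.7, 33.1 and 50.5 CPM in the contralateral, early and late libraries (ratios 0.44 and 0.67). Hk2 in fibroblast-like cells was 106, 116 and 371, so its high value was the late one (3.50-fold). In smooth muscle-like cells Hk2 was at 10.5 CPM on 4 UMIs in the contralateral library and at 116 and 232 in the early and late libraries, and Slc2a1 was 5.35-fold higher in the early library (1.81 to 26.1) on 3 contralateral UMIs.

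Pfkp, which fell in bulk tissue, was over all dissociated cells at 61.0, 66.8 and 80.9 CPM, a ratio of 1.10 (1.03 to 1.16) for early and 1.33 for late. By the study's methods the single-cell vessels were harvested at later mean days than the bulk vessels of the same stage name, so the values stand side by side without a comparison. In mono/macro-like cells it was higher after surgery, at 40.4, 70.5 and 111, and in smooth muscle-like cells its early ratio was 0.89 (0.64 to 1.27). The source of its UMIs moved: fibroblast-like cells gave 55.1% of them in the contralateral, 10.1% in the early and 31.8% in the late library, and mono/macro-like cells gave 7.80%, 52.1% and 33.0%. For Gapdh the mono/macro share went from 10.8% to 60.9% and 35.2%. Mono/macro-like cells were 11.4%, 38.8% and 26.7% of cells and fibroblast-like cells 29.6%, 8.46% and 33.8%.

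To set the level within classes apart from their shares, the 11 classes and unnamed clusters with values in both libraries were recombined. Different clusters made up a class in veins and AVFs, so the level of a class also holds shifts between its clusters, whose part was not tested. The observed early ratio of the sum was 3.15. With early levels in each class but the UMI shares of the contralateral library the ratio was 2.12, and with early shares but contralateral levels it was 1.29. The late values were 1.80, 1.66 and 1.08. Gapdh gave 4.92, 3.32 and 1.26 at the early stage, Pfkp 1.07, 0.73 and 0.95, and Hk2 0.76, 0.69 and 2.02. At the late stage Hk2 gave 2.37, 2.00 and 1.35. Bulk Hk2 took another course, with means of 21.8 CPM in veins, 72.2 in early and 21.1 in late AVFs. It was not called against the veins. Harvest days and tissue handling differed, so both courses stand side by side without a comparison.

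**Figure D5:**
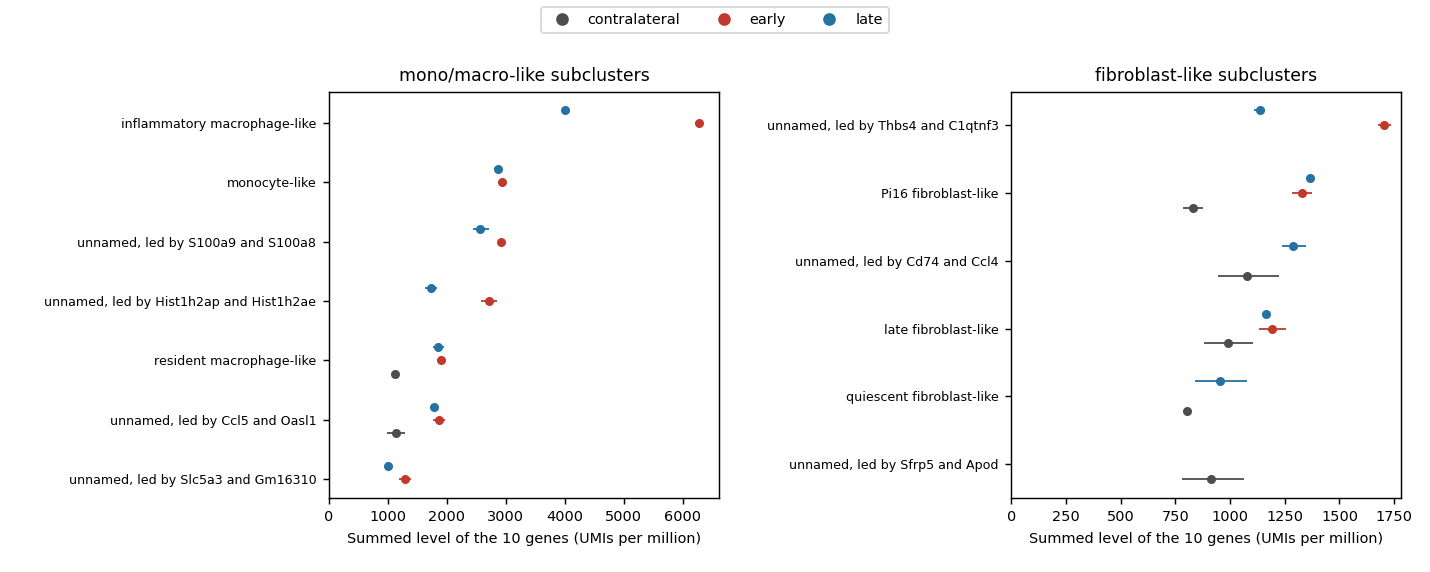
Summed level of the 10 genes in CPM of UMIs in the subclusters of mono/macro-like cells and fibroblast-like cells by library, with exact 95% Poisson intervals as bars. The inflammatory macrophage-like cells of the early library stand highest at 6279.

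Among mono/macro-like cells the sum of the 10 genes varied widely between subclusters, which were made without using these genes. Inflammatory macrophage-like cells, led by Inhba and Mmp12 and also marked by Arg1, held 6279 CPM (6212 to 6346, 297 cells) in the early and 4011 (232 cells) in the late library. Monocyte-like cells held 2937 and 2860, and a subcluster led by S100a9 and S100a8 held 2925 and 2570. Resident macrophage-like cells held 1116 (677 cells) in the contralateral, 1908 (382 cells) in the early and 1854 (59 cells) in the late library. The early sum was 1.71-fold (1.64 to 1.78) and the late sum 1.66-fold the contralateral one. This early sum joined opposite moves, with ratios of 0.18 for Hk2 and 0.64 for Pfkfb3. Aldoa, Gapdh, Pgk1, Eno1, Pkm and Ldha had ratios of 2.33 to 4.26. Pfkp was at 1.14 (0.90 to 1.45), and Slc2a1 at 7.73 on 4 contralateral UMIs. This class too joined different clusters, with 398 and 276 of the contralateral cells in 2 clusters that held 4 and 2 early cells, and 376 of the early cells in 1 that held 3 contralateral ones.

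In the early library 8 of the 10 genes were highest in the inflammatory macrophage-like cells among 7 subclusters, as were 19.2% of 2317 genes with at least 1639 UMIs there. Their level over that of resident macrophage-like cells was 11.4-fold for Slc2a1, 5.61-fold for Pgk1, 4.26-fold for Eno1, 3.97-fold for Aldoa, 3.30-fold for Pkm, 3.16-fold for Gapdh, 3.10-fold for Ldha and 2.77-fold for Pfkp. Pfkfb3 was the reverse at 0.32 and was highest in the resident macrophage-like cells. Hk2 was highest in a subcluster led by Ccl5 and Oasl1.

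Among fibroblast-like cells, Pi16 fibroblast-like cells, named for the marker of adventitial progenitors, had a sum of 830 CPM in the contralateral, 1328 in the early and 1365 in the late library. Their Hk2 went from 41.8 to 242 and 487 CPM (5.78-fold and 11.7-fold), while their Pfkp ratio was 0.36 and 0.55. These ratios compare different clusters, since 134 of the contralateral cells were in 1 cluster with 8 early and 211 late cells, and the other, led by Saa3 and Cxcl5, held 1, 59 and 641. A subcluster led by Thbs4 and C1qtnf3 held the highest sum in early fibroblast-like cells, 1705, and 1135 in the late library. Quiescent fibroblast-like cells were mostly contralateral, with a sum of 804 over 1654 cells. T-cell-like cells, which should lack it, held Lyz2 at 44.9, 255 and 412 CPM in the contralateral, early and late libraries. Mono/macro-like cells held 5150, 14951 and 7753. Free RNA and the doublets that were kept cannot be told apart here, and their part in the values of the 10 genes was not tested.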

How the data were processed

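The bulk values are the raw counts per gene deposited by the authors for 25 libraries, and the single-cell values are UMI counts deposited as 3 Cell Ranger 6.0.2 matrices, per the file headers. The submitters' processing notes name STAR and Cell Ranger and the builds mm10 and GRCm38. For the bulk counting, the strand setting, multi-mapping rule and annotation version were not given in the sources used here.

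Counts were fitted in edgeR 4.0.16 (R 4.3.3, limma 3.58.1) with TMM factors over all 25 libraries and the 4 groups, as quasi-likelihood tests on the 12673 of 56980 genes whose mean count after DESeq2 normalization reached 100. A call needed an adjusted p under 0.01 and at least a 2-fold change. The biological coefficient of variation was 0.843. The study allotted 25 mice to bulk sequencing, the same number as the libraries. Neither it nor the labels state that each library came from a separate mouse, so p-values measure the spread between libraries. DESeq2 1.42.0, other scalings and filters, single sexes and each left-out library were alternatives.

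Cells were clustered in scanpy 1.11.5 on 2000 variable genes, 12 principal components and 20 neighbours at resolution 0.5, without the 10 genes, the pathway lists or the marker lists. A cluster was named from the class with the highest mean marker fold if at least 3 markers were raised, and no cluster led by another class's markers was named, a rule made after the names were seen. Intervals are exact 95% Poisson intervals or exact conditional binomial intervals. Scrublet marked 0%, 0.0421% and 2.06% of cells. The members and lists were chosen with earlier results of these data known, and all 10 were to be named, with up to 4 genes per pathway list called in early AVFs and up to 2 called only later, to which Tpi1 and Dld were added after their values were seen. The scripts were tested on simulated data.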

Additional observations from a re-analysis of the deposited data

Results flagged for a closer look

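In 40 groups of member values, 6 held a library whose distance from the rest was beyond Dixon's 95% limit. Normally distributed values pass it in about 1 of 20 independent groups. The CPM here were not log-transformed, all 6 stood on the high side and the same libraries recur, so the 6 cannot be weighed against that rate. Late AVF 16 stood above its group for Slc2a1 (43.0 CPM, next 29.5) and for Pfkp (211.7 CPM, next 157). Contralateral vein 34 held 72.6 CPM of Hk2, against 26.0 in the next vein. Mid AVF 12 was high in Hk2 (62.0 CPM, next 31.9) and in Aldoa (1714.9 CPM, next 926), and late AVF 23 was high in Aldoa (1992.1 CPM, next 784). The latter 2 libraries held the most skeletal muscle marker RNA of their groups, 6146 and 8376 CPM, and its part in the Aldoa and Hk2 values was not tested beyond leaving such libraries out.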

How the results depend on the processing

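Of 40 alternatives, 25 of which left out 1 library each, 0 changed the sign of a called gene. All 97 sign changes were among values that were not called. The looser thresholds kept the main fit, so they could change no sign. The cause of the changes given here was not tested. Of the 5 genes called in early AVFs against veins, 3 were called in female mice only and 1 in male mice only. By DESeq2, its size factors, library totals alone, filterByExpr, no filter or only the 2 groups 4 were called (Eno1 lost). With single libraries left out it was 4 to 5. Slc2a1 was called in addition at an adjusted p under 0.05 with a 2-fold change, and Slc2a1 and Aldoa at any fold. Aldoa was added with upper quartiles and Pfkfb3 without the 3 veins with the fewest genes. At the mid and late stages the 1 gene became 0 in male mice only and 2 without the 3 veins with the fewest genes. It stayed 1 when single libraries were left out. In male mice only 272 (mid) and 219 (late) of 12673 genes were called, and without these veins 1258 and 1130. Between mid and early AVFs, 0 became 1 by DESeq2, 2 at an adjusted p under 0.05 with a 2-fold change and 4 at any fold. These stand beside 411, 482 and 536 of 12673 genes called in the same settings. Without single libraries it was 0 to 2. Between late and early AVFs, 2 stayed 2 but were Hk2 and Pgk1 with only the 2 groups. The count became 1 with library totals alone or with no low-count filter, and 0 in either sex alone or without the libraries high in platelet markers. It became 4 at an adjusted p under 0.05 at any fold, without the libraries high in skeletal muscle markers or without the 3 veins. Without single libraries it was 0 to 3. Over all genes the calls were 596 with only the 2 groups, 289 with library totals alone and 208 with no filter. They were 0 in females, 2 in males and 87 without the libraries high in platelet markers. At any fold they were 897, without the libraries high in skeletal muscle markers 296 and without the 3 veins 831. Between late and mid AVFs it was 0 throughout. The calls of all genes in early AVFs were 1599, against 2392 by DESeq2, 3803 with filterByExpr, 3938 with no filter, 1043 in males, 665 with only the 2 groups and 368 in females. Of these 73.4% were higher with filterByExpr, 77.0% with no filter and 61.1% in females, and the median over all genes was then 0.20, 0.51 and 0.09. The early calls over all genes were 1611 with DESeq2 size factors, 1485 with library totals alone and 1540 with upper quartiles. They were 2520 at an adjusted p under 0.05 with a 2-fold change, 2919 at any fold and 2163 without the 3 veins. The mono/macro ratios were 2.79 (early) and 1.88 (late) at resolution 1.0 and 1.90 (late) at a mitochondrial limit of 5%, where the fibroblast ratios were 1.86 and 1.48. At a minimum of 500 genes 7 of 7 classes had higher sums in early cells. With the cluster led by Pth counted as mono/macro-like, 8 of 8 did.

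No paired analysis was possible because the bulk groups share no replicate numbers. Single-cell groups are 1 library each, contralateral cells are the shallowest, and 9 UMIs stand behind the contralateral value of Slc2a1 in mono/macro-like cells and 3 and 4 behind those of Slc2a1 and Hk2 in smooth muscle-like cells.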

Other observations

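Genes that feed into or draw from glycolysis differed between cell classes in the single-cell libraries, given here as CPM of UMIs with 1 library per group and no test. Slc16a3, the lactate exporter, was at 5.24, 64.9 and 50.7 in mono/macro-like cells and at 204, 405 and 575 in neutrophil-like cells of the contralateral, early and late libraries. Slc2a4, which encodes GLUT4, was at 84.4, 6.15 and 3.22 in smooth muscle-like cells. Epas1, the hypoxia-inducible factor known from endothelium, was at 629, 467 and 368 in endothelial-like cells. Mpc1, which was lower in mid and late than in contralateral bulk libraries, was at 69.4, 134 and 93.9 over all cells. There was no mid single-cell library, and harvest days and the handling of the tissue differed. The bulk and single-cell values of Mpc1 thus stand side by side without a comparison.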
